A study of Mus musculus with 3 samples.

Results

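Solute carriers are membrane proteins that move amino acids, sugars, ions, metals, transmitters and vitamins across cell and organelle membranes, and their genes carry symbols that begin with Slc or Slco. In the brain they clear glutamate and GABA from synapses, fill synaptic vesicles, set intracellular chloride, calcium and pH, and feed dividing progenitors with glucose and amino acids. Some also supply or sense the amino acids that switch on the growth kinase complex mTORC1. Seh1, a nucleoporin encoded by Seh1l, has a place in that pathway too, since it is a subunit of GATOR2, a complex that acts on mTORC1, as well as of the nuclear pore. Here the solute carrier genes are described that were named in the Seh1 or the IgG peak list of neural stem cells.

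The members were all genes whose name in either list began with Slc and a digit, or with Slco. There were 184 of them among the 9838 genes named in the lists, and 182 were protein-coding. The remaining members were Slc13a2os, an antisense RNA gene, and Slc22a13b, a transcribed pseudogene. The member Slc4a1ap encodes an adaptor protein and not a transporter. The RefSeq gene table of assembly GRCm38.p6 held 399 such symbols, of which 389 were protein-coding, so members are set below against all 389 and not only against those with a peak.

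The chromatin came from cultured primary neural stem cells of wild-type mice, grown from newborn (P0) cortex in growth medium with EGF and bFGF. All 3 libraries shared this genotype and treatment and differed in the precipitation step: an immunoprecipitation for Seh1, an immunoprecipitation with IgG as a background control, and an input of unprecipitated chromatin. Peak lists of the Seh1 and the IgG library were used, and the headers pair each with the input. With 1 library in each group there were no replicates, and peak lists cannot show whether a carrier was expressed or whether the cells carried the markers of their labelled type.

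A peak counts here as given to a gene when the authors' annotation named that gene as the nearest transcription start site. The Seh1 list gave 282 of its 16113 peaks to 165 solute carrier genes, a share of 1.75% (95% exact binomial interval 1.55 to 1.96%). The IgG list gave 60 of its 5314 peaks to 42 of these genes, a share of 1.13% (0.863 to 1.45%). Peaks of both lists were given to 23 genes, 142 had Seh1 peaks only and 19 had IgG peaks only. Over all protein-coding genes 31.9% were given a Seh1 peak and 11.3% an IgG peak. The same split was not counted over all genes, so it is not read as a trait of carriers. An overlap with an IgG peak was found for 0 of the 282, which allows a share of up to 1.06%, and over the whole Seh1 list the share was 0.372%. The closest IgG peak to any of the 282 had its centre 4.52 kb away. Read depth is unknown, the deposited score was 0 for every peak, and intervals and limits cover counting error only. A longer list can also come from a deeper library, so a gene with Seh1 peaks only is not thereby shown to differ between the libraries.

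Of the 389 protein-coding carrier genes, 163 were given a Seh1 peak, or 41.9% (36.9 to 47%), beside 31.9% of all 21779 protein-coding genes. For IgG the count was 42 genes, or 10.8% (7.89 to 14.3%), beside 11.3% of all. A peak centre can also be placed by whether it lies between the ends of the gene, whatever start site is nearest. By that measure 104 carrier genes held a Seh1 peak, or 26.7% (22.4 to 31.4%), beside 19.5% of all protein-coding genes, and 21 held an IgG peak, or 5.4% (3.37 to 8.13%), beside 6.26%. The carrier shares lay above the background in the Seh1 list and close to it in the IgG list. Whether the difference exceeds that between repeat libraries could not be tested.

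Carrier genes are longer than most, with a median of 29.8 kb against 17.2 kb over all protein-coding genes, and longer genes were given peaks more often. Carriers given a Seh1 peak had a median length of 40.7 kb, and those not given one had 24.3 kb. Among genes of 20 to 50 kb, 66 of 149 carriers (44.3%, 36.2 to 52.7%) and 34.3% of all protein-coding genes were given a Seh1 peak. From 10 to 20 kb the shares were 33.3% (22.2 to 46%) and 26.4%, and from 50 to 100 kb they were 59.7% (47.5 to 71.1%) and 45.1%. At 100 kb or more they were 57.5% (40.9 to 73%) and 62.1%, and under 10 kb they were 14.5% (6.86 to 25.8%) and 19.5%. The carrier share was higher in the 3 middle length classes and lower in the shortest and the longest, and its interval left out the share of all genes only in the classes of 20 to 50 and 50 to 100 kb. For Seh1 peak centres inside the gene, the carrier interval held the share of all genes in every length class. At 20 to 50 kb these shares were 24.2% (17.5 to 31.8%) and 21%. At 50 to 100 kb they were 47.2% (35.3 to 59.3%) and 38.4%. Per length of gene body, carriers held 8.12 Seh1 peaks per Mb (exact Poisson interval 6.93 to 9.47), from 164 peaks in 20.19 Mb, beside 6.9 over all protein-coding genes. For IgG they held 1.59 per Mb (1.08 to 2.24) beside 1.9.

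**Figure D1:**
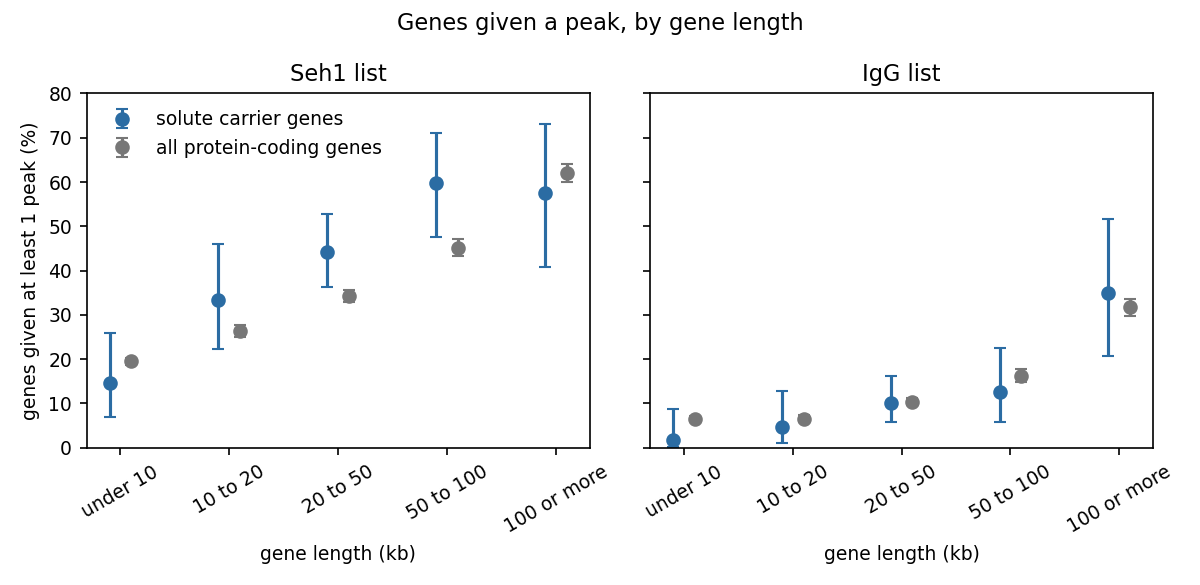
Share of genes given at least 1 peak (%, points) by gene length in kb, for solute carrier genes (blue) and all protein-coding genes (grey), in the Seh1 list (left) and the IgG list (right). Bars are 95% exact binomial intervals; in the Seh1 list the carrier share rises from 14.5% under 10 kb to 59.7% at 50 to 100 kb, and in the IgG list the carrier intervals hold the share of all genes in every class.

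The Seh1 peaks of carriers lay mostly in introns and between genes. The annotation put 128 of the 282 in introns (45.4%, 39.5 to 51.4%; all Seh1 peaks 36.8%), 124 in intergenic sequence (44%, 38.1 to 50%; all 54.3%) and 23 in exons (8.16%, 5.24 to 12%; all 5.37%). The other classes held 2 peaks at promoters, 3 in 3′ UTRs, 1 at a transcription termination site and 1 in a non-coding exon. Of the 60 IgG peaks of carriers, 29 were intronic (48.3%, 35.2 to 61.6%; all IgG peaks 33.5%), 26 were intergenic (43.3%, 30.6 to 56.8%; all 62.5%) and 0 were in the exon class, which allows a share of up to 5%. Over the whole IgG list the exon share was 1.09%. The intron share of carriers was thus above that of the whole list in both libraries, and the intergenic share below it. Within 10 kb of a start site lay 59 of the Seh1 peaks, or 20.9%, beside 18.1% of all Seh1 peaks, and 8 of the 60 IgG peaks, or 13.3%. The median distance to the start site was 29 kb for Seh1 and 51.8 kb for IgG peaks of carriers, beside 37.8 and 57.4 kb over the whole lists.

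**Figure D2:**
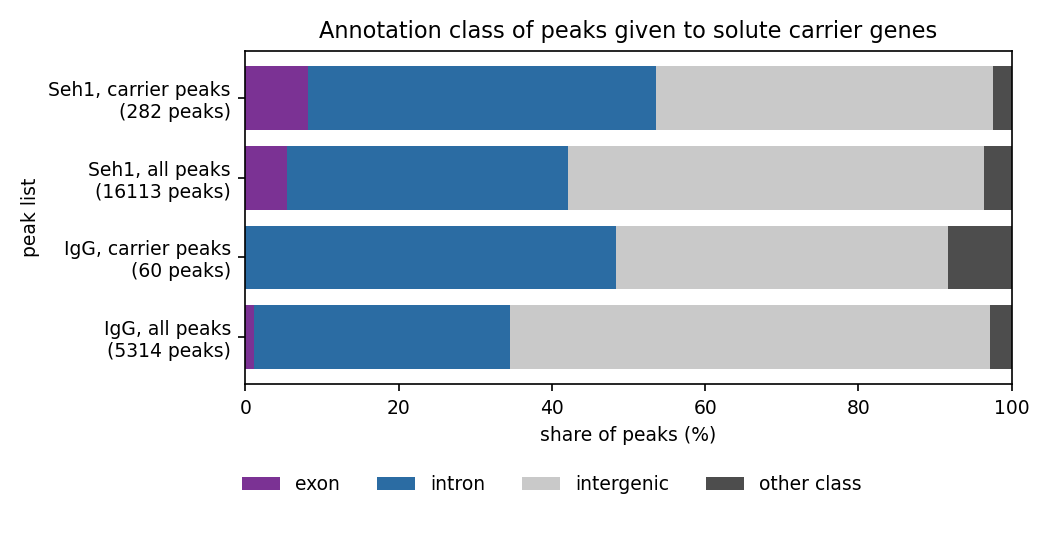
Annotation class of peaks as a share of each list (%), for peaks given to solute carrier genes and for all peaks, in the Seh1 and IgG lists. Exons (purple) hold 8.16% of the Seh1 peaks of carriers and 0 of the 60 IgG peaks of carriers; "other class" combines promoters, termination sites, UTRs and non-coding exons.

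Few peaks of carriers lay at a start site. A Seh1 peak within 1 kb of a start site was given to 4 carrier genes, or 1.03% (0.281 to 2.61%), beside 1.11% of all protein-coding genes. No IgG peak of a carrier lay so close. Slc25a21, which encodes a mitochondrial carrier of oxodicarboxylates, had a Seh1 peak of 310 bp centred 340 bp upstream of a start site, on chromosome 12 from 57160829 to 57161138. For Slc22a14, a member of the organic ion carrier family, a peak of 243 bp was centred 467 bp upstream. Slco2b1, an organic anion transporter, had a peak of 360 bp in exon 1 of 14, 326 bp downstream of a start site. In Slc36a3, of the proton-coupled amino acid transporter family, a peak of 271 bp lay in exon 2 of 11, 436 bp downstream. None of the 4 belongs to the neural lists described below.

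RefSeq promoter windows of 300 bases, from 250 bases before the start to 50 after it, were matched by symbol for 307 carrier genes in 389 windows. Of these, 1 was overlapped by a Seh1 peak (0.257%; all windows 0.6%) and 0 by an IgG peak. That window belonged to Slc25a21, and the sequence before its start site is shown because no other matched carrier window was overlapped. Carriers without a matched window were not examined in this way. It runs on the minus strand over chr12:57160644-57160893 of GRCm38.p6, and capitals mark the 65 bases under the Seh1 peak.
Slc25a21: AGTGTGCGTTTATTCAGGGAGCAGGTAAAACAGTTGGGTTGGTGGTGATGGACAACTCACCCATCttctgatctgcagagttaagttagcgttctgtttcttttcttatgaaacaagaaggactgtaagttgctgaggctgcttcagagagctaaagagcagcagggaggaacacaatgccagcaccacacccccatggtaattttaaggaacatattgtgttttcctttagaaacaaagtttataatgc
This stretch was 42.8% G and C and held 2 CG pairs. It was searched on both strands for the letters of a TATA box (TATAAA), which 12.4% of all promoter windows hold, of a CCAAT box (CCAAT, 33.8% of windows) and of a GC box (GGGCGG, 32.7% of windows). The TATA box letters were found on the opposite strand, from 10 to 5 bases before the start and outside the capitals, and the other letters were not in this stretch. Slc25a21 spans 485 kb and also held 3 IgG peaks. The widest of them, with 436 bp, lay 12.2 kb upstream of a start site and was among the 3 widest IgG peaks of carriers.

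The exon class, kept apart from UTRs, held 23 Seh1 peaks given to 21 carriers, but only 10 of the 23 lay in an exon of the carrier itself. Among those 10 were peaks in Slc13a5, the citrate transporter (exon 4 of 12), Slc15a5 (exon 4 of 9), Slc30a3, which loads zinc into synaptic vesicles (exon 3 of 8), and Slc35b3, a Golgi carrier of the sulfate donor PAPS (exon 2 of 10). Others were in Slc36a3, Slco2b1, Slc5a11, an inositol transporter (exon 11 of 17), Slc6a20b, of the imino acid transporters (exon 4 of 11), and Slc9a8, a sodium-proton exchanger of the Golgi (exon 2 of 16). The remaining 13 exon peaks lay in exons of neighbouring genes and reached a carrier only as the nearest start site. Of these, 3 were in exons 26, 34 and 45 of 64 of Reln, which encodes the secreted protein reelin that guides cortical layering, and were given to Slc26a5, the motor protein prestin, from 81.7 to 133 kb away. Dock9, Tnik, Tnrc18, Ano4, Ints3, Dennd3, Bdh2 and 4930402H24Rik held 1 each, given to Slc15a1, Slc2a2, Slc29a4, Slc5a8, Slc27a3, Slc45a4, Slc9b2 and Slc4a11. The last pair lay in other carriers: exon 13 of 14 of Slc2a5 was given to the adjoining Slc2a7, and exon 7 of 12 of Slc13a2 was given to Slc13a2os.

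Counted by the transcript that holds the peak, 20 protein-coding carriers had a Seh1 exon peak of their own, or 5.14% (3.17 to 7.83%), beside 3.67% of all protein-coding genes. For IgG the count was 0 of 389, which allows up to 0.771%, beside 0.248% of all. Besides those 10 these were Slc2a5 and Slc13a2 and 8 genes whose exon peak was given to a neighbour. They included Slc22a5, the carnitine transporter (exon 7 of 10), Slc23a2, the sodium-dependent vitamin C transporter (exon 11 of 16), and Slc24a3, a potassium-dependent sodium-calcium exchanger (exon 14 of 17). Slc25a12, the mitochondrial aspartate-glutamate carrier of brain, had its peak in exon 18 of 18. Slc26a5 itself held a peak of 400 bp in exon 8 of 18, given to Psmc2. Slc2a9, a urate transporter (exon 11 of 12), Slc2a13, the proton-coupled inositol transporter (exon 10 of 10), and Slc5a4b (exon 11 of 15) completed the group.

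Nearest start site and gene body thus named partly different carriers. Of the 165 genes given a Seh1 peak, 90 also held a peak centre between their ends and 75 did not. A further 15 held a centre without being given any peak. Of the 282 Seh1 peaks, 117 lay in a transcript of the gene they were given to (41.5%, 35.7 to 47.5%; all Seh1 peaks 30.3%) and 41 in one of 26 other genes (14.5%; all 15.1%), whose median length was 99.55 kb. Sel1l3 held 4 of these peaks, all given to Slc34a2, a phosphate transporter, and introns of Fryl, Tmem132c and 4930402H24Rik held 3, 3 and 2 further peaks. Of the 103 peaks in an intron of the gene given, 33 were in intron 1 and 64 carried no repeat label.

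The number of peak centres did not simply follow gene length. Slc39a11, a zinc transporter gene of 405 kb, held 7 Seh1 peak centres, of which 5 were given to 4732490B19Rik, and 0 IgG centres. Slc24a3 (474 kb) and Slc23a2 (92.8 kb) held 6 each, Slc44a5, of the choline transporter-like family (298 kb), and Slc4a4 held 5 each. Slc5a1, which encodes the sodium-glucose cotransporter SGLT1, held 4 within 5.98 kb of introns 1 and 2, although the gene spans only 58.5 kb. The longest carrier gene, Slc9a9 (561 kb), held 2, and Slc8a1 (365 kb) held 0. In all, 12 carriers held at least 3, with 54 peaks, of which 19 were given to another gene.

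**Figure D3:**
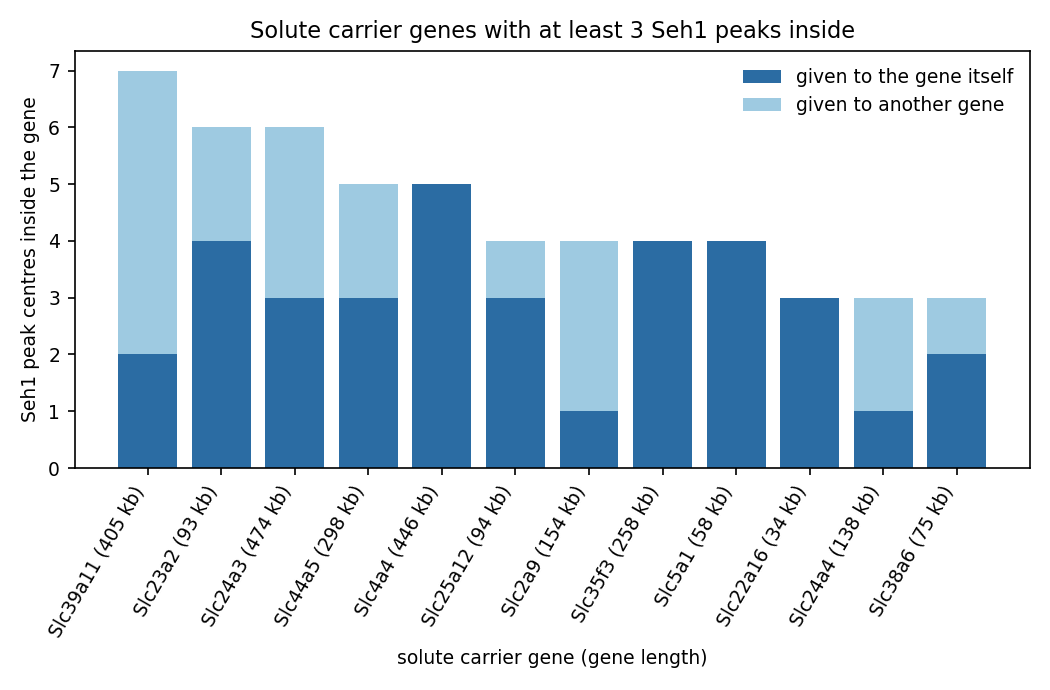
Number of Seh1 peak centres inside each solute carrier gene that held at least 3 (gene length in kb in brackets), split by whether the nearest start site belonged to the gene itself (dark) or to another gene (light). Slc39a11 holds 7, of which 5 were given to another gene, whereas all 5 in Slc4a4 were given to Slc4a4.

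By transporter family, the 399 symbols fell into 52 families, of which 41 were given a Seh1 peak and 21 an IgG peak. Families were set by symbol alone, so their totals include genes that are not transporters. The adaptor gene Slc4a1ap counts in Slc4 and the pseudogene Slc22a13b in Slc22, and each was given a Seh1 peak. Every one of the 5 potassium-dependent sodium-calcium exchangers (Slc24) was given a Seh1 peak, with 11 peaks in all. Only 3 of the 5 held a Seh1 centre inside, and the peak of Slc24a1 lay 66.6 kb away in an intron of Dennd4a. The smaller families Slc40, Slc49 and Slc51, of at most 2 genes, were also given peaks throughout. The glutamate and neutral amino acid family Slc1 had 5 of 7, the glucose transporters Slc2 had 8 of 13, the vesicular and phosphate family Slc17 had 5 of 9, and the bicarbonate family Slc4 had 6 of 11. In the organic ion family Slc22 there were 14 of 26, in the monocarboxylate family Slc16 7 of 14, in the zinc exporters Slc30 5 of 10 and in the bile acid family Slc10 4 of 8. Slc35, which carries nucleotide sugars into the Golgi, had 13 of 27, Slco 7 of 15, Slc5 6 of 13 and the sodium-dependent transmitter family Slc6 10 of 22. Lower shares were found in Slc38 and Slc26 (4 of 11 each), Slc9 (5 of 14), Slc12 (3 of 9) and Slc7 (5 of 16). The mitochondrial family Slc25, with 48 symbols the most numerous, had 12, and the zinc importers Slc39 had 2 of 15. Slc18 had 1 of 4, and neither Slc8 (0 of 4) nor Slc32 (0 of 1) was given any, both among the 11 families with none. These counts are small, and families differ in gene length: the median was 138 kb in Slc24, 21.1 kb in Slc25 and 8.8 kb in Slc39. A Seh1 peak was given to 41.9% of protein-coding carriers and to 31.9% of all protein-coding genes. The shares of Slc38 and Slc26 (36.4% each), Slc9 (35.7%), Slc12 (33.3%) and Slc7 (31.2%) lay close to the latter. The order of the families is therefore not read as a trait of any of them.

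The 2 measures of a family did not always go together. In Slc16, 7 genes were given 16 Seh1 peaks, and no gene of the family held a Seh1 peak centre inside. In Slc9, 7 of 14 genes held a centre inside and 5 were given a peak. Slc10 received 18 peaks, of which 10 belonged to Slc10a2, the ileal bile acid transporter, and all 10 lay outside the gene, from 115 to 1760 kb away. Each of these 10 intergenic peaks carried a repeat label. An IgG peak was given to 10.8% of protein-coding carriers and to 11.3% of all protein-coding genes, against which the IgG counts by family are to be read. In the IgG list Slc25 had 5 genes, Slc6, Slc35 and Slco had 4 each, Slc4 and Slc22 had 3 each, Slc5, Slc16, Slc17 and Slc39 had 2 each, and Slc1, Slc8, Slc10, Slc18, Slc24 and Slc30 had 1 each, as did Slc13, Slc14, Slc23, Slc40 and Slc44.

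**Figure D4:**
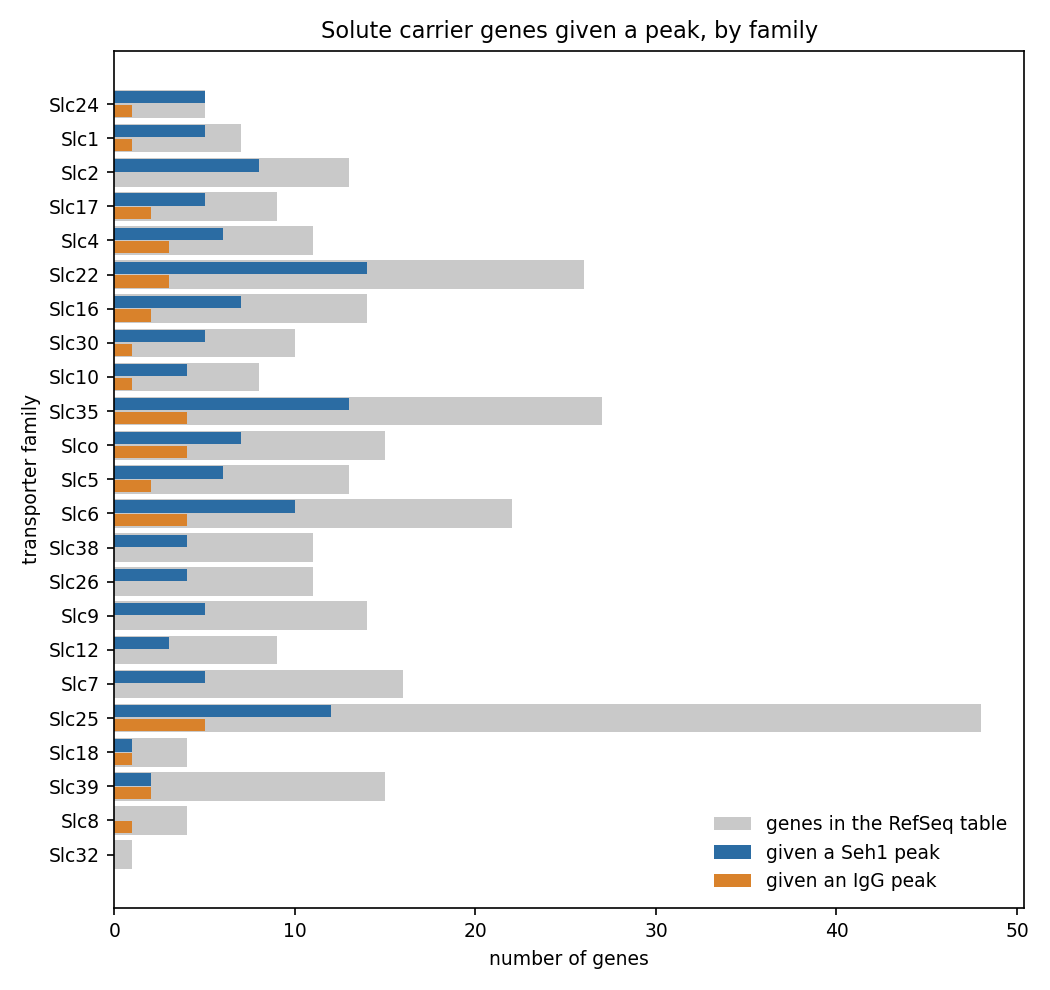
Number of genes in each of 23 transporter families, those with at least 8 symbols and 5 smaller ones of neural interest (grey, symbols in the RefSeq table) and the number given at least 1 Seh1 peak (blue) or IgG peak (orange), ordered by the Seh1 share. Of the families drawn, Slc24 reaches 5 of 5, Slc25 has 12 of 48, and Slc8 and Slc32 have 0 in the Seh1 list.

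Carriers were grouped by substrate and family into 8 lists with 124 genes, called neural lists here. A role in neurons, glia or progenitors was not shown for every member, so the lists are not a set of neural carriers only. Together 57 of the 124 were given a Seh1 peak, or 46%, and 16 an IgG peak. Their median length was 36.1 kb. Over all 389 carriers the shares were 41.9% for Seh1 and 10.8% for IgG, and over all protein-coding genes they were 31.9% and 11.3%, against which the counts of the single lists below are to be read. None of their Seh1 peaks lay within 1 kb of a start site, and 3 of the 93 were in the exon class.

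Glutamate uptake genes had Seh1 peaks in introns or upstream. Slc1a2, the glial glutamate transporter GLT-1, held a pair in intron 1 of 9, on chromosome 2 from 102681434 to 102681676 and from 102682161 to 102682452, with centres 0.751 kb apart and about 23 kb downstream of the start site (22.9 and 23.6 kb). Slc1a1, the neuronal transporter EAAC1, had a peak of the smallest width, 243 bp, in intron 1 of 11, 5.61 kb downstream. Slc1a5, the glutamine transporter ASCT2, had a peak of 277 bp 5.25 kb upstream. Slc1a3, the transporter GLAST of radial glia and astrocytes, had a Seh1 peak in an RLTR10 element 14 kb upstream and 2 IgG peaks, of which 1 was in its 3′ UTR. The neutral amino acid transporter Slc1a4 had 2 Seh1 peaks, 56.9 and 104 kb upstream, each with an LTR label. Slc1a6 and Slc1a7, the Purkinje cell and retinal transporters, had none in either list.

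Vesicular transporters, which load transmitter into synaptic vesicles, were given Seh1 peaks in 2 of 7 cases and IgG peaks in 2. Slc17a8, the vesicular glutamate transporter VGLUT3, held a Seh1 peak of 541 bp in intron 1 of 11 (chromosome 10, 89606664 to 89607204), the third widest among all Seh1 peaks of carriers. Slc17a6 (VGLUT2) had a Seh1 peak 58.3 kb downstream and an IgG peak 41.4 kb upstream. The monoamine transporter Slc18a1 held a Seh1 peak in intron 9 of 16 that was given to Atp6v1b2, and the IgG peak given to Slc18a1 lay in turn in an intron of Atp6v1b2. Slc17a7 (VGLUT1), Slc18a2, Slc18a3 and Slc32a1, the GABA and glycine loader, had none.

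Plasma membrane transmitter transporters had 6 of 10 genes with a Seh1 peak and 3 with an IgG peak. Slc6a3, the dopamine transporter, held a Seh1 peak of 570 bp in intron 6 of 14 (chromosome 13, 73560301 to 73560870), and a further one lay 21.9 kb upstream in the 3′ UTR of Lpcat1. Slc6a2, the noradrenaline transporter, had peaks 3.91 kb upstream and in intron 3 of 13. In Slc6a5, the neuronal glycine transporter, centres lay in intron 9 and intron 11 of 14, the latter given to Nell1. Slc6a11, the GABA transporter GAT-3, had peaks in introns 5 and 6 of 13, and Slc6a9, the glial glycine transporter, had 1 peak 28.2 kb upstream. Slc5a7, the choline transporter, had a Seh1 peak 3.48 kb upstream and an IgG peak 14.4 kb upstream. The serotonin transporter Slc6a4 was given an IgG peak only, and Slc6a8 and Slc6a13 had none.

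Amino acid exchangers and sensors had 9 of 19 genes with a Seh1 peak and 0 with an IgG peak, beside 31.9% and 11.3% of all protein-coding genes. At that IgG background, 0 of so few genes does not set the list apart. Intronic peaks near the start were found in Slc7a1, the cationic amino acid transporter, Slc7a8, the neutral exchanger LAT2, and Slc7a10, an exchanger of D-serine. That of Slc7a1 (intron 1 of 12, 3.65 kb downstream) had the smallest width, 243 bp, and lay in a Tigger15a DNA element. That of Slc7a8 (intron 1 of 10, 7.13 kb) lay in a B1 element. The peak in Slc7a10 (intron 1 of 10, 7.62 kb) carried no repeat label. Slc36a1, a lysosomal proton-coupled transporter, had a peak in intron 2 of 10, and Slc38a1, a glutamine transporter of neurons, had one in its 3′ UTR. Slc3a2, the heavy chain shared by several exchangers, had a peak 13.9 kb downstream in a B1 element. The light chains Slc7a5 and Slc7a11, and Slc38a9, the lysosomal arginine sensor of mTORC1, had none in either list. Of 29 further genes that carry amino acid signals to mTORC1, 10 were given a Seh1 peak (34.5%) and 5 an IgG peak, close to the background of all genes for Seh1.

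**Figure D5:**
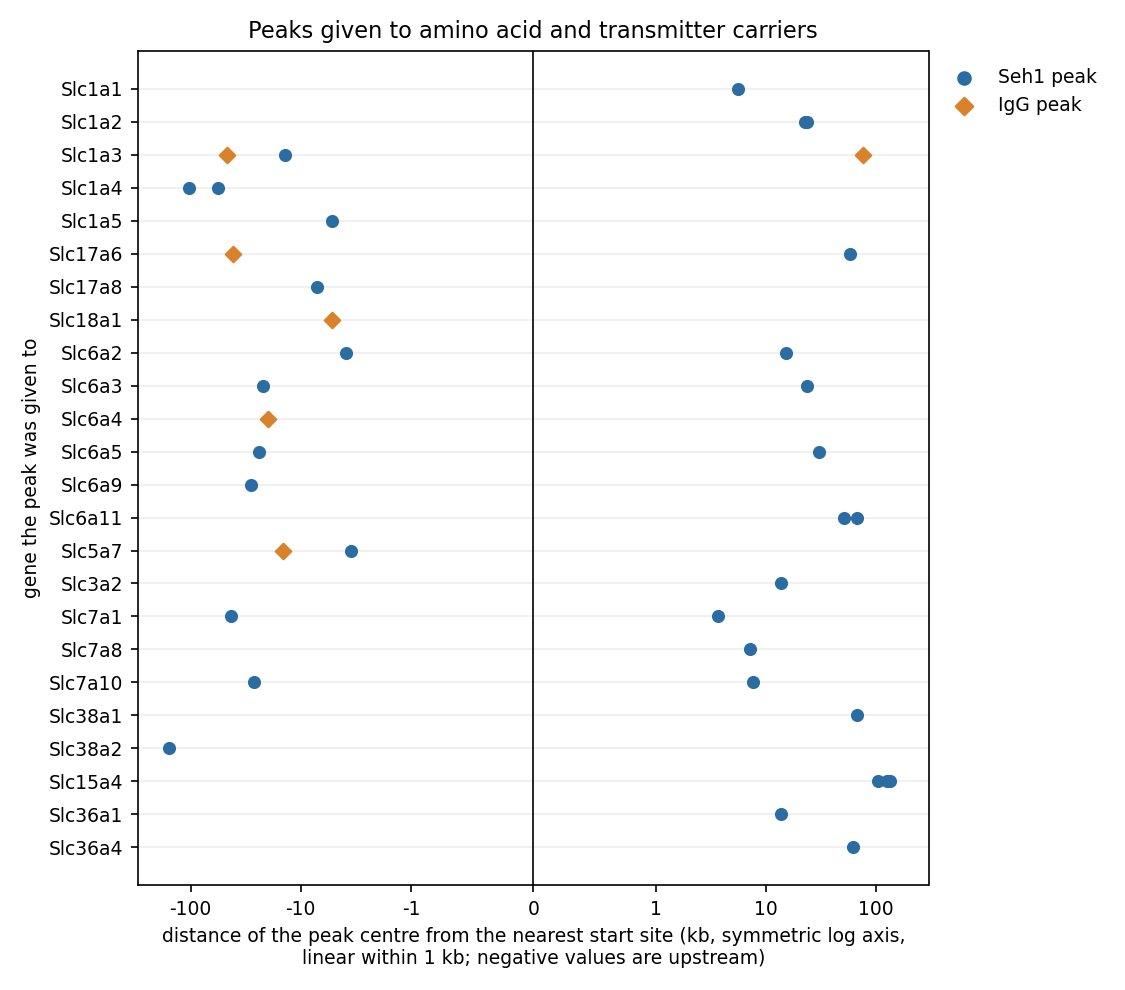
Signed distance (kb, symmetric log axis) of each peak centre from the start site of the gene it was given to, for 24 glutamate, vesicular, transmitter and amino acid carriers with a peak; circles are Seh1 peaks and diamonds IgG peaks. No peak lies within 1 kb of a start site, and peaks lie both upstream and downstream, as far as 157 kb.

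Chloride and bicarbonate carriers, which set the driving force of GABA receptors and buffer pH, had 6 of 15 genes with a Seh1 peak and 3 with an IgG peak. Slc4a4, the electrogenic sodium bicarbonate cotransporter of astrocytes, was given 5 Seh1 peaks along its 446 kb, of which 4 were classed in introns, and it also held 2 IgG centres. Slc12a7, the potassium chloride cotransporter KCC4, held centres in intron 3 of 24 and in intron 24 of 24, the latter given to Nkd2. Slc12a8 had 2 peaks 7.54 kb apart in introns 4 and 5 of 11. For Slc12a2, the chloride importer NKCC1 of immature neurons, the only peak lay 70.4 kb downstream in an MTA element. Slc12a5, the neuronal chloride exporter KCC2, had none, and Slc4a10 was given 2 IgG peaks, each in an L1 element.

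Sodium, calcium and proton exchangers had 8 of 18 genes with a Seh1 peak, and 9 held a centre inside. Slc24a3 held 6 Seh1 centres, of which 3 were given to other genes, and 1 IgG centre. Slc24a2, the neuronal exchanger NCKX2, had peaks in introns 2 and 4 of 10 and 267 kb upstream. Slc24a4 held 3 centres, of which 2 were given to Rin3. Slc9a2 and Slc9a8 held 2 centres each, Slc9a4 1 in intron 2 of 11, and Slc9a9, an endosomal exchanger of 561 kb, held 2 that were given to Mir7656. Among the sodium-calcium exchangers, Slc8a1, a gene of 365 kb, was given 4 IgG peaks and 0 Seh1 peaks, and Slc8a3 held a Seh1 centre in its 3′ UTR that was given to Gm3693.

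Zinc carriers had 7 of 24 genes with a Seh1 peak and 3 with an IgG peak, a share of 29.2% in genes with a median length of 23 kb. Besides the exon peak of Slc30a3, Slc39a14, a zinc, iron and manganese importer, had a peak of 404 bp in intron 2 of 9. Slc30a10, a manganese exporter, had one 6.15 kb upstream in a non-coding exon of Gm2061, and Slc30a4 one 6.03 kb upstream beside 2 IgG peaks. Slc39a8, an importer of zinc and manganese, held a peak of 480 bp in intron 3 of 8 that was given to 4933401H06Rik. Slc39a12, a zinc importer of brain, was given 3 IgG peaks, each in an L1 element, and no Seh1 peak.

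Glucose and monocarboxylate carriers had 14 of 24 genes with a Seh1 peak (58.3%) and 2 with an IgG peak. Slc2a1, the glucose transporter of the blood-brain barrier and progenitors, had a peak 12.1 kb upstream. Slc2a3, the neuronal glucose transporter, had one 38.5 kb upstream of the annotated start site but between the ends of the gene. Slc2a2 had a peak of 475 bp in a simple repeat of intron 1 of 10, 6.45 kb downstream, and Slc2a12 one in intron 2 of 4. Slc2a9 held 4 centres, of which 3 were given to 4930487D11Rik, and both centres in Slc2a13 were given to Abcd2. Among lactate and pyruvate carriers, Slc16a1 had peaks 57.1 kb upstream and 56.6 kb downstream, both with an LTR label, and the neuronal Slc16a7 had 3 peaks 176 to 316 kb away. Nearer peaks belonged to Slc16a9 (2.21 kb upstream), Slc16a4 (5.93 kb upstream) and Slc16a6 (6.14 kb upstream, in an intron of Arsg).

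The number of peaks per gene was low. Of the 165 genes given a Seh1 peak, 100 had 1, 38 had 2 and the rest had 3 or more. Of the 42 given an IgG peak, 29 had 1. The genes with at least 5 were Slc10a2 with 10, Slc34a2 and Slco2a1, the prostaglandin transporter, with 6 each, and Slc4a4 and Slc15a1, the intestinal peptide transporter, with 5 each. In Slc10a2, Slc34a2 and Slco2a1 none of the peaks lay inside the gene. The 6 peaks of Slco2a1 were all upstream, the nearest 3 within 4.92 kb of each other at 6.85 to 11.8 kb from the start site.

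Some carriers lie in tandem arrays of related genes, and several of these arrays held Seh1 peaks. On chromosome 13, Slc6a3, Slc6a18 and Slc6a19 lie with an antisense gene within 174 kb and were given 5 Seh1 peaks. Not all of the 5 lay within that span, which held 4 Seh1 centres. Among the 5 was the widest of any carrier, 611 bp in intron 8 of 11 of Slc6a18, an amino acid transporter of kidney (73666514 to 73667124). On chromosome 19, 5 of 6 neighbouring Slc22 genes were given 1 Seh1 peak each, beside 31.9% of all protein-coding genes. These Seh1 peaks were classed as intergenic, and all but that of Slc22a19 carried an LTR label. Slc22a29 among these genes held the widest IgG peak of any carrier, 502 bp in an L1 element. Other arrays ranged from 0 of 3 genes given a Seh1 peak (Slco, chromosome 1) to 3 of 3 (Slc22, chromosome 17). Sequence identity between the members of an array was not measured, and how reads with several matches were handled is not stated in the sources used.

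The median width was 261 bp (243 to 611 bp) for Seh1 and 264 bp (236 to 502 bp) for IgG, and 28.7% of Seh1 and 41.7% of IgG peaks of carriers had the smallest width of their list. LTR retrotransposons were at the centre of 18.4% (14.1 to 23.5%) of Seh1 peaks of carriers (all Seh1 peaks 17%) and of 3.33% (0.406 to 11.5%) of IgG peaks of carriers. LINE elements were at 9.22% (6.11 to 13.2%) and 30% (18.8 to 43.2%), and SINE elements at 9.57% (6.4 to 13.6%) and 5% (1.04 to 13.9%), beside 6.9% and 4.86% of all peaks of the lists. DNA transposons were at 4 Seh1 peaks of carriers, or 1.42% (0.388 to 3.59%), beside 0.217% of all Seh1 peaks. For IgG they were at 1 of 60 peaks of carriers, or 1.67% (0.0422 to 8.94%), beside 0.903% of all IgG peaks. Over the whole lists the LINE share was 10.6% for Seh1 and 31.8% for IgG, and the LTR share for IgG was 9.58%.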

How the data were processed

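Peak lists of the Seh1 and IgG ChIP libraries were used, 1 library each; the input was not analysed separately. The authors annotated each peak with HOMER annotatePeaks.pl against mm10, per the file headers, which gave the class, repeat label, nearest start site and distance. The submitters' processing notes name Bowtie2 and HOMER with no version and list hg18 and hg38, but genes and coordinates are mouse. The deposited score was 0 for every peak, so peaks have no height or p-value, and the caller, its threshold and read depth are not stated in the sources used.

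Members and gene lists were chosen with earlier results of these data known. Genes were matched by symbol and identifier to the RefSeq table of GRCm38.p6, which is the assembly of mm10. A peak lay inside a gene when its centre fell between the gene's ends, and peaks overlapped when they shared at least 1 bp. Intervals are 95% exact binomial (Clopper-Pearson) for shares and exact Poisson for densities; limits for a count of 0 use 3 counts. No test was made. Genes described singly had a Seh1 peak in an exon or within 1 kb of a start site, belonged to a neural list with a Seh1 centre inside or within 10 kb of the start site, had at least 5 Seh1 peaks, or held one of the 5 widest Seh1 or 3 widest IgG peaks; other genes were named after their values were seen, and some genes that met the rule are not reported here. Counts were checked on simulated peaks. Python 3.11.15, pandas 2.3.3 and SciPy 1.17.1 were used.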

Additional observations from a re-analysis of the deposited data

How the results depend on the processing

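Of 24 recomputed values, 20 stayed within 1.5 times the reported count or within the reported interval. The share of Seh1 peaks given to carriers, 1.75%, was 1.98% when only peaks within 100 kb of a start site were kept. The number of carriers given an IgG peak, 42, was 26 among peaks wider than the smallest width. The exon share of the Seh1 peaks of carriers, 8.16%, was 12.7% as a share of genes, with every gene counted once. It was 3.55% when only exons of the gene given were counted, an alternative chosen after seeing the data, because 13 of the 23 exon peaks lie in neighbouring genes. Leaving out bins dense in IgG peaks, or peaks whose start site lay off its gene, could change no count of carriers. Of the 282 Seh1 and 60 IgG peaks of carriers, 0 were of either kind. Asking for an overlap of 50% of the shorter peak, or for centres within 1 kb, could likewise not move the overlap count of 0. The closest IgG centre was 4.52 kb away. These fixed outcomes are among the 20 and do not show that the counts are robust. With 1 library per group no replicate could be left out, and read depth, which sets how many peaks can be found, is unknown. Assignment to the nearest start site names genes and does not show regulation, and the copy marked by a peak in a repeat is uncertain.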

Other observations

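No solute carrier gene of chromosome X was given a peak. The table holds 13 protein-coding carriers there, among them Slc6a8, the creatine transporter, Slc9a7, a Golgi exchanger, and Slc38a5 and Slc7a3, amino acid transporters. The count was 0 of 13 in the Seh1 list and 0 of 13 in the IgG list, which allows a share of up to 23.1%, and no Seh1 peak centre lay inside any of them. Of all 963 protein-coding genes of chromosome X, 20.8% were given a Seh1 peak and 4.98% an IgG peak, both under that limit. The chromosome was singled out after its values were seen.

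Another Seh1 peak lay within 10 kb of 70 of the 282 Seh1 peaks of carriers, or 24.8% (19.9 to 30.3%), and the interval holds the 20.8% of all Seh1 peaks. Runs inside a single carrier were found in Slc5a1 (4 peaks in 5.98 kb), Slc22a16, a carnitine transporter (3 peaks in 11.3 kb, introns 3 to 6 of 7), and Slc35f3 (3 peaks in 4.07 kb of intron 2 of 7). Each of the 3 peaks in Slc22a16 had the smallest width, 243 bp, and lay in a repeat.

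Of 15 genes for sodium and calcium pumps, which maintain the gradients that many carriers draw on, 10 were given a Seh1 peak and 0 an IgG peak, beside 31.9% and 11.3% of all protein-coding genes. Among 14 genes of glutamate and GABA metabolism the counts were 3 and 3, against the same background.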
